A study of Mus musculus with 2 samples.

Results

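Somatic cells were taken here as the GFP-negative cells sorted from dissociated mouse foetal gonads, and 8 genes of meiotic entry were followed in them: *Stra8*, *Rec8*, *Smc1b*, *Sycp1*, *Sycp2*, *Sycp3*, *Hormad1* and *Tex15*. The 8 genes were chosen by name, with earlier results of these data known, and matched to the Ensembl identifiers of the table. They are 8 of the 42422 in it, and 7 of them passed the filter on low counts, all but *Hormad1*. The other gene lists below were chosen in the same way, so shares of a list that were called are a description and not independent support. Embryos came from Swiss females crossed with 129T2svJ males that carry an *Oct4*-eGFP transgene, which marks germ cells, and they were sexed at E12.5 by whether testis cords could be seen. There were 40 libraries in 10 groups of 4, each library from the gonads of several embryos pooled. The groups were uncultured cells of each sex (0 h), cells of each sex after 24 h and after 72 h of gonad culture in DMSO, and XY cells after the same culture times in 500 nM of FGFRi (BGJ398, an inhibitor of FGF receptors 1 to 3) or 500 nM of MEKi (PD0325901, an inhibitor of MEK1/2). Every group carried the same transgene and no other allele is named, and the gonads were cultured with the mesonephros, which was removed before the sort. Values are counts of unique molecules per gene from 3′ RNA-seq, given as counts or as CPM, counts scaled to a common library total after TMM normalisation. A gene was called where it differed at least 1.5-fold and its FDR, adjusted across the 15125 genes that passed the filter, was under 0.05.

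In the foetal ovary, retinoic acid induces *Stra8* in germ cells, and STRA8 together with MEIOSIN turns on the genes of the meiotic prophase. In the foetal testis, retinoic acid is degraded and germ cells enter mitotic arrest instead of meiosis. The products of the other genes build the meiotic chromosome: REC8 and SMC1B are subunits of the meiotic cohesin ring, SYCP2, SYCP3 and HORMAD1 belong to the chromosome axis, SYCP1 is the filament that zips paired axes together, and TEX15 acts in meiotic recombination and in the silencing of transposons in the male germline. They are known as germ cell genes, so germ cell transcripts in the GFP-negative cells are given beside each of them. *Oct4*, also called *Pou5f1*, is itself turned off in XX germ cells as they enter meiosis, so a sort on this transgene is a limit of the model.

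The libraries held 1380707 to 4836550 counts, with a median of 2248854. XX libraries had 1090 to 2427 counts of *Xist* and XY libraries 0 to 14, while for *Ddx3y* on the Y chromosome the ranges were 0 to 3 in XX and 65 to 253 in XY, which fitted the label of each library. Markers of the gonadal soma were present in every library: *Nr5a1* lay between 109 and 299 CPM, *Wt1* between 181 and 771 CPM and *Gata4* between 76.6 and 184 CPM. *Sox9*, a Sertoli cell gene, was 187 to 692 CPM in XY and 55 to 156 CPM in XX libraries, and *Foxl2*, a pre-granulosa cell gene, was 0.569 to 32.4 and 48.3 to 274 CPM. *Rspo1*, another pre-granulosa cell gene, was 26.3 to 83.9 CPM in XY and 176 to 276 CPM in XX libraries, while the Sertoli cell hormone gene *Amh* reached only 13.7 CPM in any library and was at 0 in 1 of 28 XY libraries. The libraries were made in sets: the 0 h groups, both DMSO groups at 24 h and MEKi at 24 h in set 3, and FGFRi at 24 h and every 72 h group in set 4.

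The upstream sequences of the members are shown first, and whether they bear on the levels below was not tested. They were read from GRCm39 for the 250 bases before the start of the canonical GENCODE M39 transcript, and searched on both strands for AGGTCA, the half-site bound by retinoic acid receptors, for CNCCTCAG, the STRA8 and MEIOSIN motif, for TCCCGC, an E2F motif, and for CACGTG, the E-box of the MAX and MGA proteins. No matches of different motifs overlapped. Among 21770 protein-coding promoters of the same length, 13.1% held AGGTCA, 6.27% CNCCTCAG, 18.4% TCCCGC and 6.26% CACGTG. Of the 8 members, 3 held AGGTCA (*Stra8*, *Sycp3* and *Hormad1*), 0 held CNCCTCAG, 2 held TCCCGC (*Sycp3* and *Hormad1*) and 3 held CACGTG (*Sycp1*, *Sycp3* and *Hormad1*). The windows of *Rec8*, *Smc1b*, *Sycp2* and *Tex15* held none of these letters, but the *Tex15* window lies 53806 bases inside the annotated gene, before the start of its canonical transcript, and does not describe the upstream end of the gene. In the sequences below, read 5′ to 3′ on the strand of the gene, capitals mark the matches (TCCCGC reads GCGGGA where it lies on the other strand), which are a description of the letters and not of binding. For *Stra8* (plus strand, chr6:34897677-34897706) only the 30 bases around the half-site are given, because the window lies in the first exon of another *Stra8* transcript. *Sycp1* (minus strand, chr3:102843456-102843705) holds 2 E-boxes, *Sycp3* (plus strand, chr10:88295181-88295430) holds 2 E-boxes, a half-site and an E2F motif, and *Rec8* (plus strand, chr14:55855205-55855454) is shown as a member with no match.
Stra8: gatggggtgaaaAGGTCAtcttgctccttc
Sycp1: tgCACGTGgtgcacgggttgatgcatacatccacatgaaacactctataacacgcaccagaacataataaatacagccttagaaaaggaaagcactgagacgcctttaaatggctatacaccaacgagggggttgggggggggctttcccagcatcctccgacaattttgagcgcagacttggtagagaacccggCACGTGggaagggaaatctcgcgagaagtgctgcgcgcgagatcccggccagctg
Sycp3: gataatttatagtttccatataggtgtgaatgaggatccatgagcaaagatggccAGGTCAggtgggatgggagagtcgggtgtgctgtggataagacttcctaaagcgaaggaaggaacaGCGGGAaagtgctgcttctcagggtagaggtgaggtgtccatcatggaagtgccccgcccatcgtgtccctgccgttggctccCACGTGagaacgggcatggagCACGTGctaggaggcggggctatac
Rec8: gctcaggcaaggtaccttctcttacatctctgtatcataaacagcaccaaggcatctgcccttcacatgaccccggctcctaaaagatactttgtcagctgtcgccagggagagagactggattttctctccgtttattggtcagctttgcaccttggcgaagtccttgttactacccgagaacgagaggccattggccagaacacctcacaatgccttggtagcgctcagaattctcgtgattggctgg

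Germ cell transcripts were measured in every group of GFP-negative cells, and their level differed between groups. The summed level of *Dazl* and *Dnd1*, which encode RNA-binding proteins of germ cells, and *Ddx4*, which encodes a germ cell RNA helicase, is called the germ cell reference below. Before culture it was 30.2 ± 0.762 CPM (SD, n = 4) in XX and 80.2 ± 12.1 CPM (SD, n = 4) in XY cells. After 24 h it was 84 ± 26.3 CPM in XX DMSO, 57.6 ± 11.4 CPM in XY DMSO, 150.7 ± 46.7 CPM with MEKi and 19.9 ± 5.97 CPM with FGFRi (SD, n = 4 each). After 72 h it was 13.6 to 18.9 CPM on average in the 4 groups. The reference was therefore highest with MEKi at 24 h, and low in every group of set 4. The share of each gene in the sum differed between groups. With MEKi at 24 h *Dazl* was 118.7 CPM and *Dnd1* 14.4 CPM. In XX cells at 0, 24 and 72 h *Dazl* was 19.8, 63.9 and 6.10 CPM, and *Dnd1* 9.41, 11.5 and 8.75 CPM. Ratios and fits that use the reference thus do not rest on the same gene in each group.

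The 19 germline identity genes in the table include *Dazl*, *Dnd1* and *Ddx4*, so their sum is not independent of the reference. At 24 h their summed level was 512 ± 144 CPM with MEKi, 270 ± 74.1 CPM in XX DMSO, 265 ± 54.4 CPM in XY DMSO and 86.3 ± 32.3 CPM with FGFRi (SD, n = 4 each). The XX and XY DMSO sums lay within their spread. In the 72 h groups the sum was between 57.9 and 64.7 CPM on average. Of the 14 that passed the filter, 8 were lower in XX than in XY cells at 0 h and 0 were higher, where 17.3% of all genes were called. *Dppa3*, a gene of early germ cells and of the egg, had 35.6 CPM in XX and 95.7 CPM in XY cells at 0 h, with a log2 fold change of -1.43 (SE 0.250, FDR 8.73e-06). With MEKi at 24 h, 4 of the 14 rose and 1, *Kit*, fell, where 3.27% of all genes were called. Those that rose were *Dazl*, *Ddx4*, *Dppa3* and *Rnf17*, a gene of the germ cell granule. With FGFRi at 24 h, 7 fell and 0 rose, where 3.27% of all genes were called. FGFRi and its DMSO control at 24 h belong to different library sets, so a treatment effect cannot be told apart from one of set. Of 6 genes of the male germline, only *Piwil2* passed the filter. At 24 h the 6 summed to 14.1 ± 3.69 CPM in XY DMSO, 17.2 ± 5.11 CPM with MEKi, 7.26 ± 1.90 CPM with FGFRi and 4.71 ± 1.74 CPM in XX DMSO (SD, n = 4 each). *Nanos2*, which blocks meiosis in XY germ cells, was close to the floor of detection, with a count in 9 of 40 libraries and at most 4 counts. Of its 20 counts, 13 were with MEKi at 24 h, 1 to 4 in each library, and 5 were in XY DMSO cells at 24 h. *Pou5f1* had a count in 34 of 40 libraries, with a maximum of 23, and did not pass the filter. In sorted cells measured in bulk, fewer cells of a kind and less RNA per cell cannot be told apart.

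**Figure D1:**
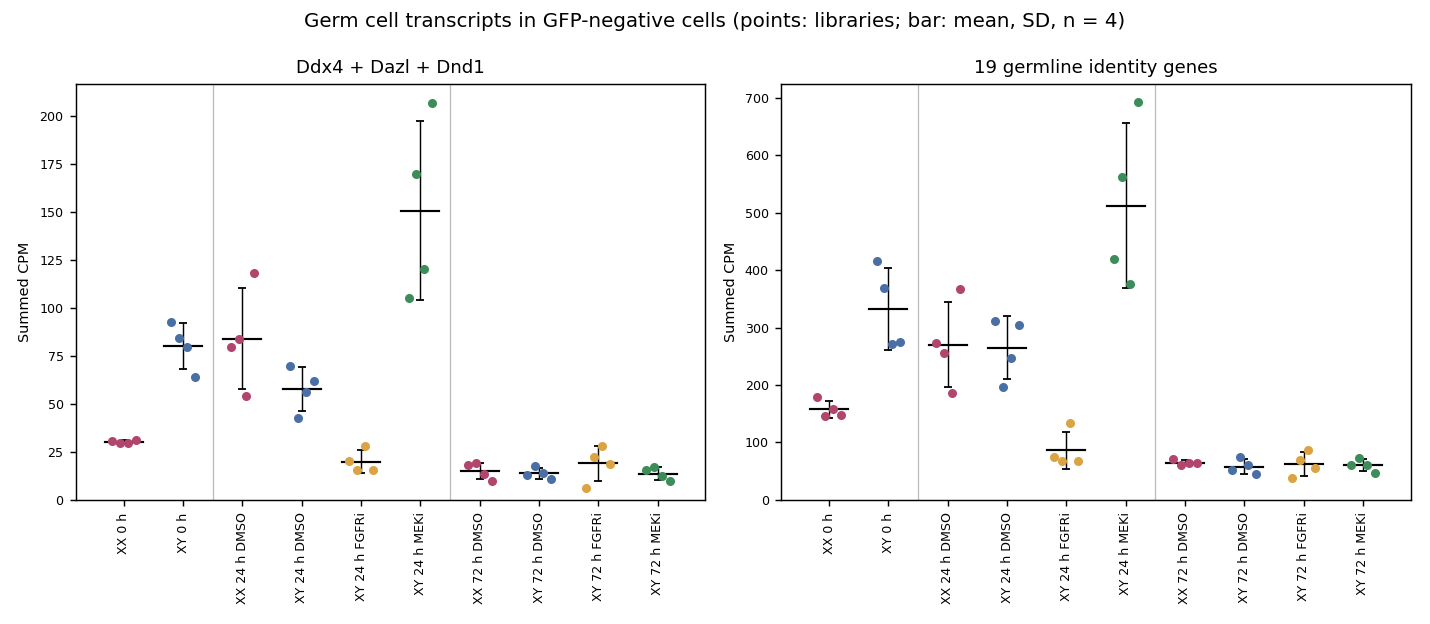
Summed CPM of the germ cell reference (left) and of the 19 germline identity genes (right) in each library, by group, with black bars for the mean and SD of 4 libraries. Points are pink for XX, blue for XY without inhibitor, ochre for FGFRi and green for MEKi. MEKi at 24 h has the highest mean of the 10 groups in both panels, and the 72 h groups are low in both.

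Before culture, the members did not share a direction between the sexes. Of the 7 tested, 3 were lower and 2 higher in XX than in XY cells, where 17.3% of all genes tested were called. The median log2 fold change of the 7 was -1.66, and that of all genes was -0.01. The genes lower in XX cells were *Stra8*, *Smc1b* and *Sycp1*, and the genes higher in XX cells were *Rec8* and *Tex15*.

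*Stra8* showed the widest gap. XX libraries at 0 h had 0.427, 0.442, 0 and 0.377 CPM, and XY libraries had 15.9, 13.1, 11.5 and 11.3 CPM. All 4 XY libraries lay above all 4 XX libraries, which held 3 counts in total against 104. The ratio of XY to XX counts per total count was 35.6, with an exact 95% binomial interval of 11.8 to 175 that covers counting error only. The fitted log2 fold change of XX against XY was -5.01 (SE 0.708, FDR 9.67e-08), a value that rests on those 3 counts. Per reference count, XY libraries had 0.162 ± 0.0151 *Stra8* counts and XX libraries, with the same 3 counts, 0.0103 ± 0.00693 (SD, n = 4 each).

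The cohesin genes went opposite ways at 0 h. *Smc1b* was 8.12, 5.74, 17.0 and 7.92 CPM in XX and 33.9, 31.9, 26.8 and 21.7 CPM in XY libraries, with no overlap and a log2 fold change of -1.66 (SE 0.312, FDR 3.25e-05). Per reference count it was 0.323 ± 0.173 in XX and 0.355 ± 0.0204 in XY cells (SD, n = 4 each), a difference within the spread. With the reference as a covariate the log2 fold change was -1.10 (FDR 0.0291) and still called, so the ratio and the covariate fit differ here. *Rec8* was 10.3, 10.6, 4.65 and 11.3 CPM in XX and 5.13, 2.28, 0.956 and 1.30 CPM in XY libraries, and the lowest XX library lay below the highest XY library. Its log2 fold change was 1.98 (SE 0.538, FDR 0.00398), in the direction opposite to the germ cell reference. With the reference as a covariate it was 1.89 (FDR 0.0661). The reference itself did not overlap between the sexes at 0 h, at 29.4 to 30.9 CPM in XX and 63.9 to 92.8 CPM in XY libraries. Where it differs between groups, the fit with the covariate is less precise, so a call lost there can reflect precision and not size. A call kept there does not show a difference beyond germ cell transcripts, since a common slope need not remove all of their share.

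Of the synaptonemal complex genes, *Sycp1* was 1.28, 0.884, 1.55 and 3.02 CPM in XX and 9.23, 14.8, 4.78 and 4.35 CPM in XY libraries at 0 h. The groups did not overlap, and the log2 fold change was -2.18 (SE 0.499, FDR 0.000585). With the germ cell reference of each library as a covariate it was -1.24 (FDR 0.147), and was no longer called. *Sycp2* (-1.67, SE 0.744, FDR 0.103) and *Sycp3* (-0.38, SE 0.519, FDR 0.668) did not pass the test. *Tex15* was 34.2, 49.0, 40.3 and 48.3 CPM in XX and 7.18, 10.8, 14.3 and 10.0 CPM in XY libraries. Every XX library lay above every XY library, with a log2 fold change of 2.02 (SE 0.231, FDR 3.86e-10), although the reference was lower in XX cells.

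After 24 h in culture with DMSO, all 7 members tested were higher in XX than in XY somatic cells, where 19.6% of all genes were called, and none of the 7 overlapped between the groups, which was so for 25.4% of all genes tested. Their median log2 fold change was 2.25, against -0.01 for all genes. The germ cell reference differed less: *Dazl* was called at a log2 fold change of 0.61 (SE 0.233, FDR 0.0440), and *Ddx4* and *Dnd1* were not. Of the 14 germline identity genes tested, 3 were higher in XX cells and 0 lower, with a median of 0.17.

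*Stra8* was 11.6, 13.1, 6.77 and 15.4 CPM in the XX DMSO libraries and 1.43, 0.746, 1.34 and 0 CPM in the XY DMSO libraries at 24 h. The sexes had thus changed places since 0 h, with XX above XY in every library, and the log2 fold change was 3.58 (SE 0.522, FDR 1.68e-07). *Smc1b* was 95.7, 79.2, 75.0 and 112.7 CPM in XX and 21.4, 16.2, 15.5 and 24.9 CPM in XY libraries, a log2 fold change of 2.25 (SE 0.237, FDR 2.75e-11). It had the highest level of any member in the series in these XX libraries. *Rec8* was 6.66, 14.9, 11.6 and 12.3 CPM in XX and 1.07, 3.48, 0.766 and 0.778 CPM in XY libraries, a log2 fold change of 2.82 (SE 0.504, FDR 1.11e-05).

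The other members were also higher in XX cells at 24 h. *Sycp1* was 40.3, 26.0, 26.1 and 35.6 CPM in XX and 6.06, 4.23, 3.83 and 3.50 CPM in XY libraries (log2 fold change 2.86, SE 0.341, FDR 9.64e-10). *Sycp3* was 23.8, 18.1, 14 and 35.2 CPM in XX and 11.1, 5.22, 3.64 and 7.78 CPM in XY libraries (log2 fold change 1.78, SE 0.381, FDR 0.000211). *Tex15* was 57.8, 65.1, 54.2 and 49.8 CPM in XX and 18.5, 26.1, 18.2 and 17.5 CPM in XY libraries (log2 fold change 1.49, SE 0.191, FDR 6.24e-09). Every XX library lay above every XY library for each of these genes, most narrowly for *Sycp3*. *Sycp2* was the weakest, at 1.26 (SE 0.457, FDR 0.0342), and without 7 of the 8 libraries in turn its FDR was above 0.05 (0.0563 to 0.122). With the germ cell reference as a covariate, *Sycp2* was no longer called (0.91, FDR 0.194) and the other 6 still were. *Hormad1* had 1 to 7 counts in the XX and 1 or 2 counts in the XY libraries and was not tested.

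The change between 0 and 24 h was tested in each sex and as a difference between the sexes. In XX cells, *Stra8*, *Smc1b*, *Sycp1*, *Sycp2* and *Sycp3* rose, 5 of the 7 tested, where 7.73% of all genes were called. *Smc1b* rose by 3.33 on the log2 scale (SE 0.282, FDR 3.24e-13) and *Sycp1* by 4.16 (SE 0.427, FDR 1.09e-10). *Sycp3* rose by 2.41 (SE 0.437, FDR 5.63e-05), a value that was 1.03 (FDR 0.256) with the germ cell reference as a covariate, while *Dazl* rose by 1.71 (SE 0.267, FDR 3.65e-06). In XY cells, *Stra8* fell by 3.70 (SE 0.531, FDR 3.23e-07) and *Tex15* rose by 0.93 (SE 0.237, FDR 0.00278), 2 of 7 where 14.4% of genes were called. The sex difference itself moved between the time points for *Stra8*, *Smc1b*, *Sycp1*, *Sycp2* and *Sycp3*, 5 of 7 where 6.2% of genes were called. For *Stra8* this shift was 8.59 on the log2 scale (SE 0.873, FDR 2.92e-10). Its size rests on 3 counts in XX cells at 0 h and 14 in XY DMSO cells at 24 h. For *Sycp2* (2.93, SE 0.871, FDR 0.0277) and *Sycp3* (2.15, SE 0.646, FDR 0.0292) it was lost with the covariate (FDR 0.562 and 0.907) and without several libraries in turn, XX replicate F9 at 24 h, XX replicate F3 at 0 h and XY replicate M5 at 0 h among them for both. *Rec8* (0.84, SE 0.764, FDR 0.631) and *Tex15* (-0.52, SE 0.303, FDR 0.380) did not pass that test. Time and culture cannot be told apart here, since cells at 0 h were not cultured.

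**Figure D2:**
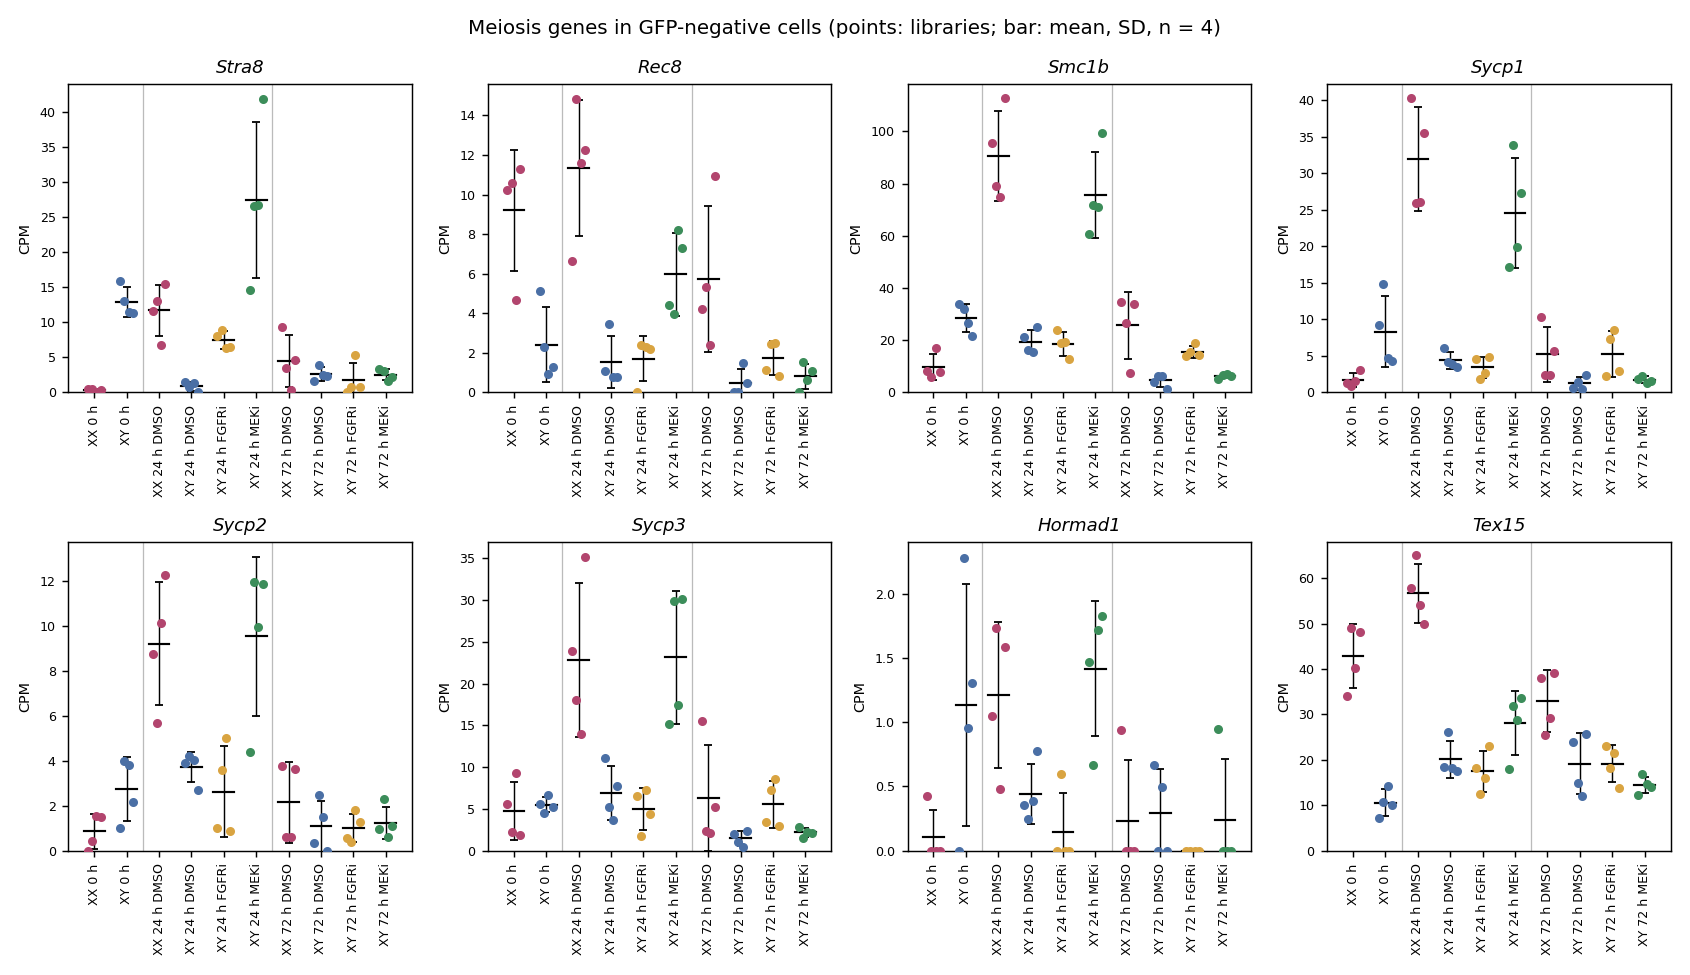
CPM of each member in each library, by group, on a linear axis from 0 that differs between panels, with black bars for the mean and SD of 4 libraries. Points are pink for XX, blue for XY without inhibitor, ochre for FGFRi and green for MEKi. Stra8 is highest with MEKi at 24 h, and its XX and XY groups change places between 0 and 24 h, whereas Rec8 and Tex15 are higher on average in XX than in XY cells without inhibitor at all 3 times.

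MEKi for 24 h raised members in XY somatic cells. Of the 7 tested, 5 were higher than with DMSO and 0 lower, where 3.27% of all genes tested were called, and their median log2 fold change was 1.94, against -0.01 for all genes. The genes were *Stra8*, *Rec8*, *Smc1b*, *Sycp1* and *Sycp3*. Germ cell transcripts moved the same way: the reference rose from 57.6 to 150.7 CPM, and *Dazl* by 1.49 on the log2 scale (SE 0.232, FDR 7.65e-06). The reference was 105 to 207 CPM in the MEKi and 42.8 to 69.9 CPM in the DMSO libraries, with no overlap. A fit with it as a covariate therefore cannot well separate the treatment from the reference. The values of each member set against the reference follow.

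*Stra8* with MEKi was 14.7, 26.6, 26.7 and 41.9 CPM, above each XY DMSO library at 24 h, of which the highest was 1.43 CPM. The log2 fold change was 4.79 (SE 0.502, FDR 1.17e-09), which is 27.7-fold. With the reference as a covariate it was 3.24 (FDR 0.000864) and was still called. Per reference count, MEKi libraries had 0.18 ± 0.0385 and DMSO libraries 0.0155 ± 0.0106 *Stra8* counts (SD, n = 4 each), with no overlap.

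*Smc1b* with MEKi was 60.6, 71.7, 70.9 and 99.4 CPM, all above the DMSO libraries, and the log2 fold change was 1.99 (SE 0.241, FDR 3.27e-08). With the covariate it was 1.44 (FDR 0.00331), against a rise of 0.60 (SE 0.170) in its mean log2 ratio to the reference. *Sycp1* with MEKi was 17.1, 33.9, 19.9 and 27.4 CPM, and its log2 fold change of 2.46 (SE 0.350, FDR 1.34e-06) became 1.53 (FDR 0.0696) with the covariate. Only *Stra8* and *Smc1b* were called in both fits, and a call in both does not by itself show a rise beyond that of the reference. *Sycp3* with MEKi was 15.2, 29.9, 17.5 and 30.1 CPM, a log2 fold change of 1.78 (SE 0.388, FDR 0.00191) that was 0.51 (FDR 0.760) with the covariate. *Rec8* with MEKi was 4.40, 3.99, 8.22 and 7.29 CPM, a log2 fold change of 1.94 (SE 0.540, FDR 0.0245) that was 2.02 (FDR 0.168) with the covariate. The *Rec8* call was also lost without DMSO replicate M2, M4 or M5 or MEKi replicate M4 or M6 (FDR 0.0603 to 0.115). *Sycp2* (1.32, SE 0.465, FDR 0.0980) and *Tex15* (0.47, SE 0.205, FDR 0.220) did not pass the test, although the *Sycp2* libraries did not overlap.

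**Figure D3:**
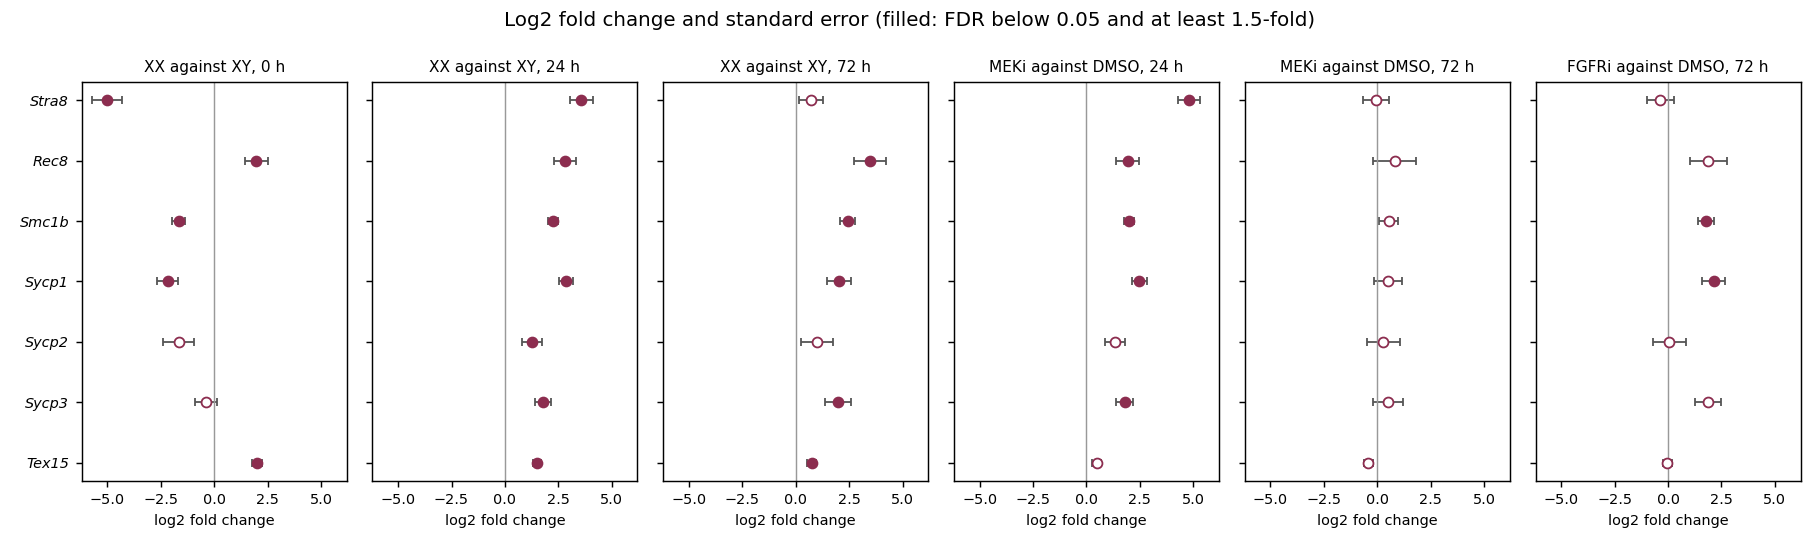
Log2 fold change (horizontal axis) with its standard error for the 7 members tested in 6 comparisons, with filled points for those called. At 0 h Stra8, Smc1b and Sycp1 lie on the XY side and Rec8 and Tex15 on the XX side, at 24 h all 7 lie on the XX side, and with MEKi 5 are called at 24 h and 0 at 72 h.

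Member counts per germ cell reference count were compared by a two-sided exact permutation test of their mean log2 ratios, with 8 members in 7 comparisons. With 4 against 4 libraries this exact permutation test cannot go below p = 0.0286, a value that 18 of the 56 tests reached, and after Benjamini-Hochberg adjustment over the 56 tests the smallest adjusted p was 0.0889, so 0 passed. The tests therefore give sizes and overlaps but no call. At 24 h, 5 members had more counts per reference count in XX than in XY DMSO cells without overlap, namely *Stra8*, *Rec8*, *Smc1b*, *Sycp1* and *Sycp3*. By the same measure 423 of the 15125 genes tested were higher and 2585 lower without overlap. The mean log2 ratio was higher by 3.34 (SE 0.723) for *Stra8*, 2.31 (SE 0.264) for *Sycp1* and 1.71 (SE 0.183) for *Smc1b* (exact permutation p = 0.0286, adjusted p = 0.0889 for each).

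With MEKi at 24 h, *Stra8* (3.68, SE 0.736), *Sycp1* (1.07, SE 0.211) and *Smc1b* (0.60, SE 0.170) had a higher mean log2 ratio than with DMSO without overlap, and *Tex15* a lower one (-0.89, SE 0.299), each with exact permutation p = 0.0286 and adjusted p = 0.0889. *Rec8* (0.74, SE 0.667) and *Sycp3* (0.42, SE 0.281) overlapped. Of the 15125 genes tested, 7 were higher and 11659 lower per reference count without overlap, the reference being 150.7 CPM with MEKi and 57.6 CPM with DMSO. Against XX DMSO cells at the same time, XY cells with MEKi had 0.18 ± 0.0385 *Stra8* counts per reference count and XX cells 0.139 ± 0.0144 (SD, n = 4 each), a difference of 0.34 on the log2 scale (SE 0.168) with overlap (exact permutation p = 0.143, adjusted p = 0.25). *Rec8*, *Smc1b*, *Sycp1*, *Sycp3* and *Tex15* had fewer counts per reference count with MEKi than in XX cells, with differences from -0.80 for *Sycp3* to -1.88 for *Tex15* and no overlap, as had 4173 of the 15125 genes tested.

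**Figure D4:**
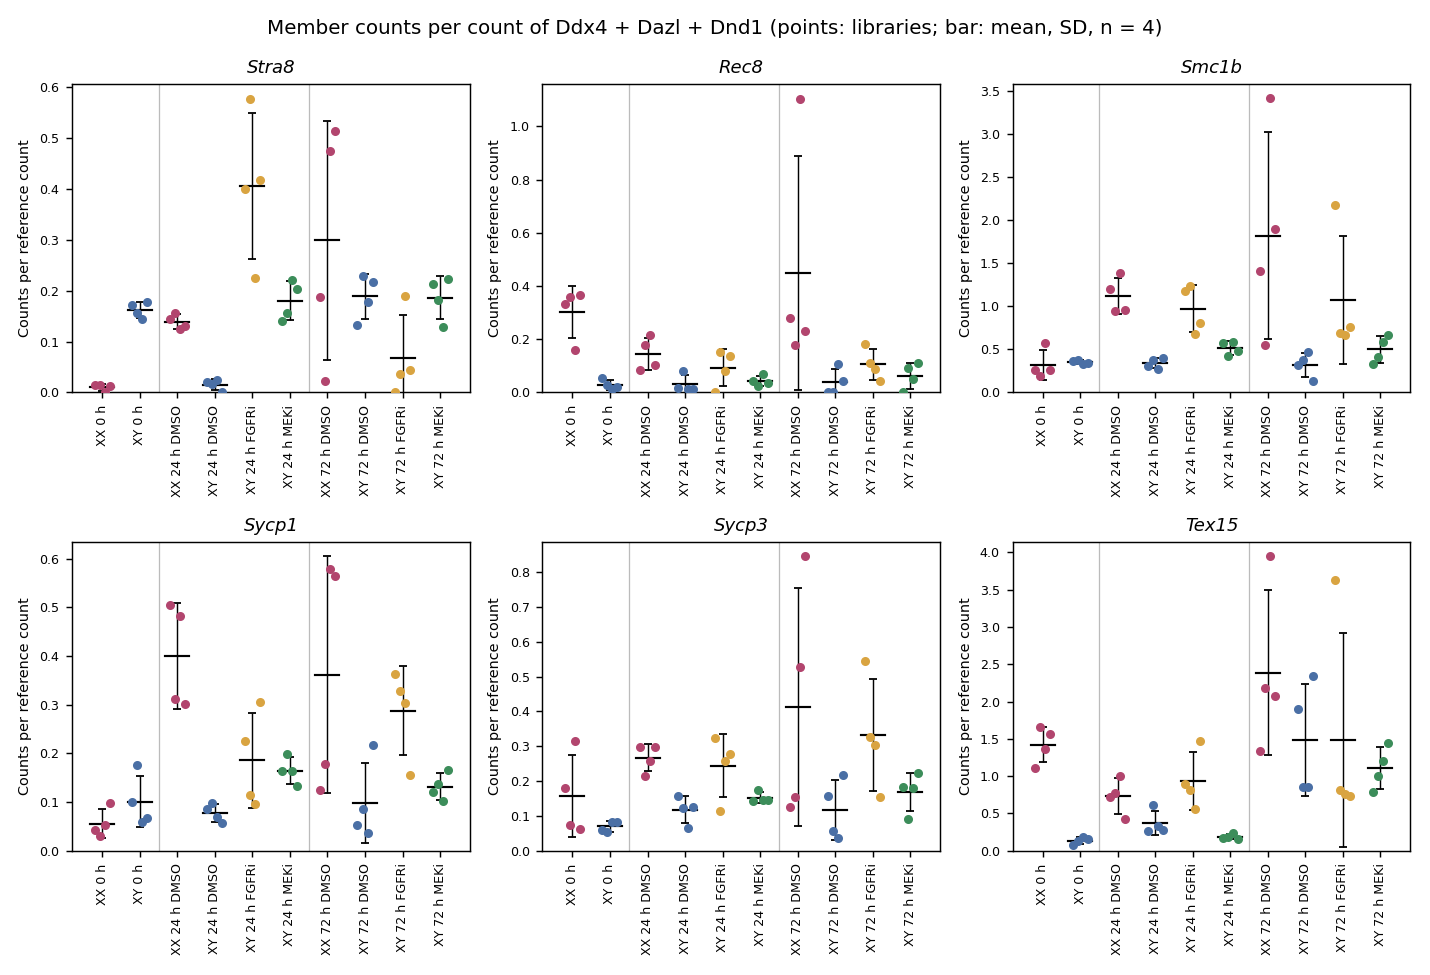
Counts of 6 members per count of Ddx4, Dazl and Dnd1 together in each library, by group, on linear axes from 0, with black bars for the mean and SD of 4 libraries. Points are pink for XX, blue for XY without inhibitor, ochre for FGFRi and green for MEKi. The Stra8 ratio is near 0 in XX cells at 0 h and in XY DMSO cells at 24 h, and the ratios of the 72 h groups scatter widely, over 11 to 79 reference counts a library.

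Without reference to germ cells, XY cells with MEKi and XX DMSO cells at 24 h differed in 2 of the 7 members, where 16.4% of genes were called. *Stra8* was higher in the MEKi libraries (log2 fold change 1.21, SE 0.374, FDR 0.0131), although 1 MEKi library lay within the XX range, and the FDR was 0.104 without the highest MEKi library and 0.0504 without the lowest XX library. With the germ cell reference as a covariate the *Stra8* difference was 0.30 (FDR 0.707), and *Sycp1* was then called lower with MEKi (-0.97, FDR 0.0334). *Tex15* was lower with MEKi, at 18.1, 31.9, 28.8 and 33.7 CPM, below each XX library (log2 fold change -1.02, SE 0.194, FDR 3.9e-05). The other 5 differed by -0.89 (*Rec8*, SE 0.451, FDR 0.172) to 0.06 (*Sycp2*, SE 0.440, FDR 0.949) on the log2 scale.

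FGFRi for 24 h was followed by a higher *Stra8* level and by no other call among the 7 members, where 3.27% of all genes were called. *Stra8* was 8.08, 8.93, 6.38 and 6.56 CPM with FGFRi, each library above every XY DMSO library, a log2 fold change of 2.91 (SE 0.566, FDR 0.000591). The germ cell reference went the other way, from 57.6 to 19.9 CPM. *Smc1b* (-0.04, SE 0.276, FDR 0.969), *Sycp1* (-0.30, SE 0.449, FDR 0.812) and *Rec8* (0.13, SE 0.667, FDR 0.959) did not pass the test. The FGFRi libraries at 24 h are of set 4 and the DMSO libraries of set 3, so that the *Stra8* difference cannot be told apart from one between sets. MEKi and FGFRi at 24 h were not compared for the same reason.

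After 72 h, 5 of the 7 members were higher in XX than in XY DMSO cells and 0 lower, where 20.3% of genes were called, with a median log2 fold change of 1.98 against -0.01 for all genes. The germ cell genes did not share that direction: of the 14 germline identity genes tested, 5 were lower in XX cells and 1 higher, and their summed level was 64.7 ± 4.13 CPM in XX and 57.9 ± 12.9 CPM in XY cells (SD, n = 4 each). Without *Tdrd5*, the 1 gene called higher, the sums were 42.2 ± 6.49 CPM in XX and 57 ± 13.1 CPM in XY cells. *Ddx4* was at 0 in 3 of the 4 XX libraries. *Rec8* was 4.23, 5.32, 2.39 and 11 CPM in XX and 0, 0, 1.5 and 0.476 CPM in XY libraries, with no overlap. Its log2 fold change was 3.48 (SE 0.748, FDR 0.000224), a size that rests on 4 counts in all in the XY libraries. *Smc1b* was 34.8, 26.6, 7.45 and 33.9 CPM in XX and 4.00, 6.46, 6.48 and 1.43 CPM in XY libraries, again with no overlap (log2 fold change 2.43, SE 0.350, FDR 1.45e-07).

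The other members at 72 h overlapped between the sexes. *Tex15* was 38.1, 25.4, 29.2 and 39.2 CPM in XX and 24.0, 14.9, 12 and 25.7 CPM in XY libraries (log2 fold change 0.76, SE 0.212, FDR 0.00447). *Sycp1* (2.02, SE 0.560, FDR 0.00425) and *Sycp3* (1.98, SE 0.595, FDR 0.00867) rested on XX replicate F11, which had 10.3 CPM of *Sycp1* and 15.5 CPM of *Sycp3*, against at most 5.74 and 5.22 CPM in the other XX libraries. Without it their log2 fold changes were 1.43 (FDR 0.0737) and 0.99 (FDR 0.270), and 3 members were called. *Stra8* was 9.40, 3.54, 0.298 and 4.70 CPM in XX and 1.67, 3.98, 2.49 and 2.38 CPM in XY libraries, and the difference was within the spread (0.71, SE 0.569, FDR 0.389). *Hormad1* had 2 counts in 1 XX library and 0 in the other 3.

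Between 24 and 72 h the sex difference of *Stra8* became smaller, by 2.88 on the log2 scale (SE 0.809, FDR 0.0414), the only one of the 7 to pass, where 2.04% of genes were called. The FDR rose above 0.05 without any of 11 of the 16 libraries in turn. For *Smc1b* (0.19, SE 0.424, FDR 0.936) and *Rec8* (0.66, SE 0.921, FDR 0.869) the difference between the time points was within its error. The 24 h and 72 h DMSO groups belong to different library sets, but each sex difference was taken within a set.

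MEKi for 72 h left no member called, 0 of 7 where 6.47% of all genes were called. None had an unadjusted p below 0.05 in edgeR's test, and DESeq2 also called 0. *Stra8* was 3.32, 3.06, 1.57 and 2.16 CPM with MEKi, overlapping the DMSO libraries (log2 fold change -0.04, SE 0.608, FDR 0.975). *Smc1b* was 5.21, 6.88, 7.22 and 6.47 CPM with MEKi (0.53, SE 0.423, FDR 0.451). The germ cell reference was 13.6 ± 3.24 CPM with MEKi and 13.7 ± 2.73 CPM with DMSO (SD, n = 4 each). The MEKi effect differed between 72 and 24 h for *Stra8*, by -4.84 on the log2 scale (SE 0.831, FDR 0.000477), 1 of 7 where 1.41% of genes were called. No other member passed that test, *Smc1b* being at -1.46 (SE 0.503, FDR 0.142). The estimates of all 7 lay below 0, with a median of -1.30 against 0.002 for all genes.

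FGFRi for 72 h was followed by higher *Smc1b* and *Sycp1*, 2 of 7 members where 1.8% of all genes were called, and here treatment and control belong to the same set. *Smc1b* was 13.8, 15.4, 19 and 14.3 CPM with FGFRi, above every DMSO library (log2 fold change 1.79, SE 0.368, FDR 0.00299). *Sycp1* was 2.30, 7.29, 8.59 and 2.94 CPM with FGFRi and 0.666, 1.49, 0.499 and 2.38 CPM with DMSO, and the groups overlapped (log2 fold change 2.14, SE 0.547, FDR 0.0207). The *Sycp1* call was lost without any of 4 of the 8 libraries in turn, with FDR 0.190 without FGFRi replicate M5 and 0.0567 without M4, which were the 2 FGFRi libraries with the most *Sycp1*, and FDR 0.116 and 0.0574 without DMSO replicates M2 and M5. FGFRi replicates M5 and M4 also held the most germ cell reference, 28.3 and 22.3 CPM against 18.9 and 6.33 CPM, and *Sycp1* with the reference as a covariate had FDR 0.0787. *Sycp3* did not pass the test (1.88, SE 0.594, FDR 0.0752) although its groups did not overlap, and *Stra8* did not either (-0.37, SE 0.634, FDR 0.863).

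The inhibitors were compared with each other at 72 h, at the same dose. *Smc1b* (-1.27, SE 0.338, FDR 0.00928) and *Sycp1* (-1.63, SE 0.501, FDR 0.0269) were lower with MEKi than with FGFRi, 2 of 7 where 6.43% of genes were called. Without FGFRi replicate M5 neither passed, at FDR 0.0529 and 0.186, and *Sycp1* did not pass without FGFRi replicate M4 or MEKi replicate M2, M4 or M5 either (FDR 0.0509 to 0.0905). *Stra8* (0.33, SE 0.629, FDR 0.808) and *Tex15* (-0.38, SE 0.230, FDR 0.318) did not pass the test. Against XX DMSO cells at 72 h, XY cells with MEKi were lower for *Rec8*, *Smc1b*, *Sycp1*, *Sycp3* and *Tex15*, 5 of 7 where 19.2% of genes were called, from -2.67 (*Rec8*, SE 0.659, FDR 0.00132) to -1.17 (*Tex15*, SE 0.218, FDR 2.46e-05). Without XX replicate F11, *Sycp1* (-0.93, FDR 0.260) and *Sycp3* (-0.50, FDR 0.619) no longer passed, and neither did *Sycp1* without MEKi replicate M4 (FDR 0.0741) or *Sycp3* without MEKi replicate M3, M4 or M5 (FDR 0.0642 to 0.101). This comparison shares its XX libraries with the sex comparison and its MEKi libraries with the treatment comparison.

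Across all 10 groups the members fell into different orders. *Stra8* was highest with MEKi at 24 h at 27.5 ± 11.2 CPM, followed by XY cells at 0 h at 12.9 ± 2.13 CPM and XX DMSO at 24 h at 11.7 ± 3.66 CPM, and the latter 2 did not differ beyond their spread. *Smc1b* was highest in XX DMSO at 24 h at 90.6 ± 17.2 CPM and with MEKi at 24 h at 75.7 ± 16.6 CPM, again within their spread, and the next group, XY at 0 h, was at 28.6 ± 5.44 CPM. *Sycp1*, *Sycp2* and *Sycp3* also had XX DMSO and MEKi at 24 h as their 2 highest groups. *Tex15* was led by the 3 XX groups, at 56.7 ± 6.48 CPM at 24 h, 42.9 ± 7.06 CPM at 0 h and 33 ± 6.73 CPM at 72 h, and was lowest in XY cells at 0 h at 10.6 ± 2.95 CPM (SD, n = 4 for each group). *Hormad1* was at 0 in 19 of 40 libraries and had at most 7 counts, and all 4 FGFRi libraries at 72 h were at 0.

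The correlation of the members with germ cell genes was taken across the 40 libraries. The Pearson correlation of log2 CPM with *Dazl* was 0.76 for *Smc1b*, 0.74 for *Sycp1*, 0.73 for *Sycp2*, 0.75 for *Sycp3*, 0.57 for *Stra8*, 0.42 for *Rec8* and 0.15 for *Tex15* (n = 40 libraries that share groups and library sets). With *Dnd1* it lay between 0.44 (*Stra8*) and 0.54 (*Sycp1*) for all but *Tex15* (0.29), *Rec8* at 0.50 being above *Stra8* and *Sycp2*, so the order of the members depends on the germ cell gene. With *Ddx4* it was 0.08 for *Rec8*, -0.01 for *Tex15* and 0.57 to 0.66 for the other 5. Of the genes that are no members, the 3 with the highest correlation were *Xlr4c*, *Syce1* and *Tex101* for *Sycp1* (0.86, 0.85 and 0.83), *Xlr4c*, *Tex101* and *4930447C04Rik* for *Sycp3* (0.89, 0.87 and 0.84), and *Map7d2*, *Tex101* and *4930447C04Rik* for *Smc1b* (0.86, 0.85 and 0.83). *Syce1* encodes a protein of the central element of the synaptonemal complex, and *4930447C04Rik*, also called *Six6os1*, another. For *Rec8* they were *Pacsin2*, *Cul1* and *Rasgrp1* (0.83, 0.82 and 0.82), and for *Tex15* *Pacsin2*, *Gbp2b* and *Dapk1* (0.87, 0.86 and 0.85). *Stra8* had the weakest leading correlations, with *Fxyd6*, *Aqp12* and *Rnf17* (0.71, 0.69 and 0.67), and *Sycp2* followed *Gm4779*, *Tuba3a* and *Gpat2* (0.84, 0.80 and 0.78).

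Of the other meiosis genes on the list, 31 were in the table and 12 passed the filter. In XX against XY DMSO cells at 24 h, 4 of the 12 were higher and 0 lower, where 19.6% of all genes were called, with a median log2 fold change of 0.53. They were *Syce1*, *Prdm9* (which places recombination hotspots), *4930447C04Rik* and *M1ap*, of which *Syce1* and *Prdm9* were named after their values were seen. With MEKi at 24 h, 3 of the 12 rose and 0 fell, where 3.27% of all genes were called: *Tex11*, a recombination gene, by 2.30 on the log2 scale (SE 0.554, FDR 0.00603), *M1ap* by 2.16 (SE 0.605, FDR 0.0254) and *4930447C04Rik* by 1.59 (SE 0.281, FDR 8.54e-05). At 72 h, 3 of the 12 were lower in XX cells and 0 higher, where 20.3% of all genes were called, and with 6 of the 12 fold changes above 0 and a median of -0.04 the list had no common direction. These were *Stag3*, a meiotic cohesin subunit (-0.97, SE 0.365, FDR 0.0402), *Psmc3ip*, a recombination cofactor (-0.68, SE 0.264, FDR 0.0450), and *Syce2*, of the central element (-0.62, SE 0.153, FDR 0.00123). With MEKi at 72 h, 0 of the 12 were called. *Meiosin*, the partner of *Stra8*, had a count in 18 of 40 libraries and at most 5 counts, and was not tested.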

How the data were processed

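The authors deposited raw counts of unique molecules per Ensembl gene, per the labels with GRCm39 as the build. Genes passed edgeR's filter by group, TMM factors scaled the library sizes, and one quasi-likelihood fit of 40 libraries in 10 groups (edgeR 4.0.16, R 4.3.3) gave log2 fold changes, SE and Benjamini-Hochberg FDR over 15125 genes. The members and lists were chosen with earlier results of these data known. Named were all members and germline genes, the other meiosis genes called between the sexes at 72 h or with MEKi, and the 3 genes most correlated with each member. Alternatives used DESeq2 1.42.0, limma 3.58.1, other filters and scalings, and each library left out in turn. The fit was tried on counts simulated for MEKi against DMSO at 24 h, with libraries independent of each other. That run could not test effects of library set or of germ cell content. Same-numbered XX and XY libraries at 0 h deviated together in all 3 pairs (r 0.126 to 0.337), so a fit with the number as a block was also made. MEKi replicate M2 at 24 h was placed by its library name, which the label of its pool does not list; without it 5 members were still called. Nothing says that libraries of a group came from separate litters, so p-values measure the spread between these libraries, which may be technical. Ratios had 0.5 counts added.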

Additional observations from a re-analysis of the deposited data

Results flagged for a closer look

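In groups of 4, a single library stood far from the other 3 in 5 of 71 groups examined, where chance gives about 1 in 20. *Stra8* reached 5.37 CPM in XY FGFRi replicate M5 at 72 h, the library with the most germ cell reference of its group. *Rec8* was lowest at 4.648 CPM in XX replicate F4 at 0 h, highest at 3.48 CPM in XY DMSO replicate M3 at 24 h and at 0 in XY FGFRi replicate M1 at 24 h. *Tex15* reached 26.1 CPM in the same XY DMSO replicate M3.

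The sex difference changed between 0 and 24 h, by an interaction test in edgeR, for *Stra8* (8.5948 on the log2 scale), *Sycp1* (5.0407), *Smc1b* (3.9017), *Sycp2* (2.9254) and *Sycp3* (2.1535). For *Stra8* it changed again between 24 and 72 h (-2.8752), and the MEKi effect on *Stra8* differed between 72 and 24 h (-4.8351). The value of 8.5948 rests on 3 counts in XX cells at 0 h, and all these *Stra8* values use the 14 counts of XY DMSO cells at 24 h.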

How the results depend on the processing

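The counts of members called were the same under RLE scaling, total counts and a filter of 1 CPM, and under DESeq2 but for the sex difference between 0 and 24 h, where *Sycp3* was lost (4 called, FDR 0.0711). Only counts that moved by over 1.5 times follow. With voom and quality weights tested against 1.5-fold, 24 of the 48 called member values held, and the counts became 3 for XX against XY at 0 h, 2 at 72 h, 0 for FGFRi at 24 h, 0 for FGFRi at 72 h, 0 for MEKi against FGFRi, 0 and 0 for MEKi against XX at 24 and 72 h, 1 for XY 24 h against 0 h, 3 and 0 for the change of the sex difference to 24 and to 72 h, and 0 for that of the MEKi effect. With glmTreat against 1.5-fold they became 0 for FGFRi at 72 h, 0 for MEKi against FGFRi, 1 and 3 for MEKi against XX at 24 and 72 h, 1 for XY 24 h against 0 h, and 3 and 0 for the sex difference. With the germ cell reference as a covariate they became 3 for XX against XY at 0 h, 2 for 24 h of MEKi, 1 for 72 h of FGFRi, 1 for MEKi against FGFRi, and 3 and 0 for the sex difference. With only the compared groups in the fit they became 2 for XX against XY at 72 h, 1 for FGFRi at 72 h, 1 for MEKi against FGFRi, 2 for MEKi against XX at 72 h and 0 for the sex difference between 24 and 72 h, and 9 of the 48 values could not be had because the gene failed the filter. Without a filter the MEKi effect had 2. The causes were not tested.

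With the replicate number as a block, XX against XY at 0 h stayed at 5. At 24 and 72 h libraries share only a number (r -0.287 to 0.261 and -0.24 to 0.224 for same-numbered pairs), and under the block the counts were 1 for XX against XY at 72 h, 1 for MEKi against XX at 72 h, 1 for XY 24 h against 0 h and 0 for the sex difference between 24 and 72 h. *Sycp3* in MEKi against XX at 72 h turned from -1.49 to 0.0304.

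Without each library in turn, the counts ranged from 3 to 5 for XX against XY at 72 h, 1 to 2 for FGFRi at 72 h, 0 to 2 for MEKi against FGFRi, 1 to 2 and 3 to 5 for MEKi against XX at 24 and 72 h, and 3 to 5 and 0 to 1 for the sex difference. Smaller shifts were 6 to 7 for XX against XY at 24 h, 4 to 5 for MEKi at 24 h and 2 to 3 for XY 24 h against 0 h. Tests of the ratios below p = 0.05 numbered 17 to 22 of 56 by exact permutation under other denominators or priors, against 18. Limited by depth are *Hormad1*, with 52 counts in all, *Stra8* in XX cells at 0 h, with 3, and in XY DMSO cells at 24 h, with 14. So is *Rec8* in XY DMSO cells at 72 h, with 4.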

Other observations

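*Tdrd5*, a gene of the germ cell granule, was the only germline identity gene called higher in XX than in XY DMSO cells at 72 h. It was 22.4 ± 4.74 CPM in XX and 0.897 ± 0.410 CPM in XY DMSO cells (SD, n = 4 each), a log2 fold change of 4.60 (SE 0.518, FDR 2.37e-10). In the same groups *Utf1*, a pluripotency gene, was 0.148 ± 0.295 and 2.07 ± 1.10 CPM, on 1 and 19 counts in all. Of the list, 5 genes were lower in XX cells, where 20.3% of all genes were called. *Dnd1* (0.89, SE 0.367, FDR 0.0618) and *Nanos3* (0.67, SE 0.356, FDR 0.159) also had log2 fold changes above 0 but were not called. The sex difference of *Tdrd5* grew between 24 and 72 h by 3.49 on the log2 scale (SE 0.695, FDR 0.00123).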
